A study of Homo sapiens with 18 samples.

Results

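The genes described here are TXNIP and the genes around it in glucose sensing: the arrestin-domain genes ARRDC2, ARRDC3 and ARRDC4, the transcription factor genes MLX and MLXIP, and the thioredoxin genes TXN and TXN2. These 8 genes are 8 of 19775 genes named by a probe set with a single symbol, and 20 probe sets carried their symbols. The genes were chosen by name with earlier results of these arrays known, and the probe set shown for each was selected on its mean value over all 18 arrays, the brightest being used and the others serving as a check. The cells were HK-2, human proximal tubule epithelium made immortal in culture, so that every replicate is a culture of a single line. They received CsA, the usual abbreviation of cyclosporin A, or vehicle, and RNA was taken at 12, 24 or 48 h, giving 6 groups of 3 biological replicates. The labels give no dose. All groups were grown in a mixture of DMEM and Ham's F12 with 5 mM glucose, EGF, hydrocortisone, insulin, transferrin and selenite, and exposure began 24 h after plating, near confluence. Changes of medium and glucose concentrations during the exposure are not given in the sources used here.

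TXNIP encodes an alpha-arrestin that binds reduced thioredoxin and limits glucose uptake by drawing glucose transporters into the cell. Its transcription is driven by glucose: MondoA, the product of MLXIP, and its partner MLX respond to glucose 6-phosphate, enter the nucleus and bind carbohydrate response elements at the TXNIP and ARRDC4 promoters. TXNIP protein is in turn removed through ubiquitin ligases, and in the kidney it is best known as a gene raised by high glucose. Thioredoxin, encoded by TXN in the cytosol and TXN2 in mitochondria, reduces disulfide bonds of other proteins.

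The promoters were searched for E-box letters to show where such elements lie beside the genes that the arrays measured. RefSeq sequences of GRCh38.p14, reaching from 250 bases before to 50 after an annotated start, were given for 7 of the 8 genes, 10 promoters in all. The letters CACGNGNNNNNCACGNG, a spaced pair of E-box-like sites searched on both strands, occurred in 20 of 35116 promoters (0.057%), and among these genes only at TXNIP, from 88 to 72 bases before its start. The palindrome CACGTG occurred in 7.26% of all promoters, and here at ARRDC4 and MLX. CCAAT on either strand occurred in 34.6% of all promoters and in 6 of these 10. The letters were chosen with these promoters in view, and a match is a stretch of letters, not a shown binding site. The promoters with E-box letters are shown 5′ to 3′ along the gene, with capitals for CACGAG in TXNIP, CACGTG in the other two, and CCAAT or its complement ATTGG in each. TXNIP lies on the minus strand of chromosome 1 and the stretch shown is chr1:145996580-145996729. ARRDC4 lies on the plus strand (chr15:97960483-97960662 shown), as does MLX (chr17:42567020-42567079 shown).
TXNIP: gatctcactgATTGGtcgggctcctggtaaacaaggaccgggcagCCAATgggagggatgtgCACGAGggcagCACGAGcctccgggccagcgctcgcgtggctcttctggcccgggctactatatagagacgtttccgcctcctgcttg
ARRDC4: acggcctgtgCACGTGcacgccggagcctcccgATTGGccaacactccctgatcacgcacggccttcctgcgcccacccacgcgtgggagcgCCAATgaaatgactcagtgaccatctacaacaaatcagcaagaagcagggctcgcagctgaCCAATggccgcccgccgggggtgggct
MLX: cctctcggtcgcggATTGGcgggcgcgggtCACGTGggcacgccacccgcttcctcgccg

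Several properties of the arrays touch all results below. The deposited values lay between 0.84 and 15.98 on what is taken as a log2 scale, with array medians of 2.86 to 2.92. Of the proximal tubule markers on the array, 3 of 11 reached the level filter (PAX8, CDH6 and CDH16), while CUBN, LRP2, AQP1 and SLC34A1 averaged between 2.14 and 2.71, near background. All 6 general epithelial markers reached it, as did 4 of 7 fibroblast markers, 2 of 4 podocyte markers but 0 of 5 markers of endothelium, 0 of 4 of leukocytes and 0 of 4 of the distal nephron. The median of the fibroblast list ranged from 4.44 to 4.98 over the 6 groups, but DCN and LUM, which encode matrix proteoglycans, were well above it and lower at 48 h. DCN group means were 10.5 in vehicle and 10.5 in CsA at 12 h, 10.6 and 10.6 at 24 h, and 10.1 and 9.61 at 48 h, and single arrays ran from 8.24 to 11.76. LUM group means were 9.73 and 9.84 at 12 h, 9.57 and 9.77 at 24 h and 8.42 and 7.25 at 48 h, and single arrays ran from 6.50 to 9.94. COL1A1 group means went from 8.06 at 12 h to 7.51 at 48 h in vehicle and from 7.86 to 7.00 in CsA. COL3A1 averaged 4.71, and COL1A2, PDGFRA and PDGFRB were near background. DCN, LUM and COL1A1 means were thus lower at 48 h, the time at which TXNIP, ARRDC3 and TXN were low. Such a decline was not particular to the fibroblast list. From 12 to 48 h CDH6 means went from 12.41 to 11.35 in vehicle and from 12.57 to 10.13 in CsA. PAX8 went from 10.48 to 10.23 and from 10.38 to 10.06. CDH16 went up from 7.47 to 7.78 in vehicle and down from 7.37 to 6.73 in CsA. The part of these markers in the results was not tested. Of the variation inside groups, 71.5% followed the replicate number, and replicate 3 stood apart. For TXNIP alone that share was 52.8%. The difference between replicate 3 and another array of its group had an SD of 0.63 to 0.80 over genes, against 0.23 to 0.49 between replicates 1 and 2. Differences were therefore also fitted with the replicate number as a block. ACTB probe sets at the 3-prime end exceeded those at the 5-prime end by 0.80 to 0.95 in group means, with the lowest in vehicle at 24 h and the highest in CsA at 48 h. In such bulk RNA, fewer cells with a transcript and less of it per cell cannot be told apart.

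TXNIP was high at 12 h and low at 48 h, and its decline was already far advanced at 24 h in the CsA cultures. In vehicle, its log2 values were 10.22, 9.86 and 9.62 at 12 h, 9.58, 8.14 and 7.88 at 24 h, and 5.41, 4.72 and 5.89 at 48 h, in the order of replicates 1 to 3. In CsA they were 10.02, 8.56 and 9.23 at 12 h, 7.37, 5.42 and 5.55 at 24 h, and 5.01, 4.41 and 5.64 at 48 h. The vehicle arrays of 24 h all lay below the vehicle arrays of 12 h, while the CsA arrays of 24 h lay below all 6 arrays of 12 h and overlapped the 48 h arrays of both treatments. Group means, from high to low, were 9.90 ± 0.30 (SD, n = 3) in vehicle at 12 h, 9.27 ± 0.73 in CsA at 12 h, 8.53 ± 0.92 in vehicle at 24 h, 6.11 ± 1.09 in CsA at 24 h, 5.34 ± 0.59 in vehicle at 48 h and 5.02 ± 0.61 in CsA at 48 h. In that order the arrays of neighbouring groups overlapped at every step except the one from vehicle at 24 h to CsA at 24 h.

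**Figure D1:**
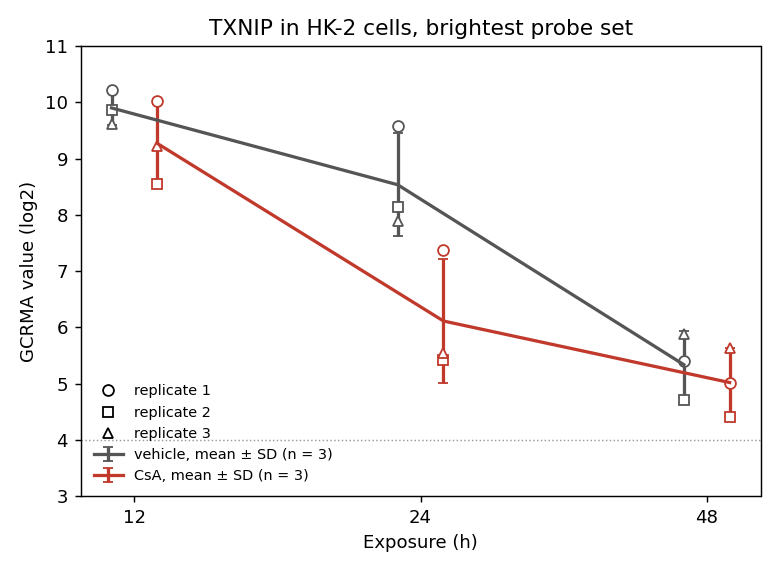
TXNIP log2 GCRMA values (vertical axis) against exposure in hours (horizontal axis, times evenly spaced), with a symbol per array, lines through the group means and bars for the SD over 3 arrays, vehicle in grey and CsA in red; the dotted line marks the level filter of 4. The groups lie close together at 12 h and at 48 h and apart at 24 h, where the means were 8.53 in vehicle and 6.11 in CsA.

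The first comparison asked how CsA cultures differed from vehicle cultures of the same time. At 24 h TXNIP was 5.35-fold lower with CsA, a log2 difference of -2.42 ± 0.57 (SE of the fit) with a 95% interval from -3.64 to -1.20. This was the lowest difference among the 10717 genes tested at that time, but it did not pass the adjustment over all genes (limma, adjusted p = 0.892, and adjusted p = 0.0908 with the replicate block). The 3 CsA arrays lay below the 3 vehicle arrays, which held in this direction for 5.12% of genes. No gene passed at 24 h (limma, percent called 0), where 406 genes and 1 of the 7 tested members, TXNIP, had an unadjusted p under 0.05. With the block, 1 gene passed at 24 h (0.00933%), and it was not a member.

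At the other times the difference was smaller and the groups overlapped. CsA minus vehicle for TXNIP was -0.63 ± 0.57 at 12 h (95% interval -1.85 to 0.59) and -0.32 ± 0.57 at 48 h (-1.54 to 0.90). At 48 h TXNIP read from 4.41 to 5.89, not far above the level filter of 4, and GCRMA compresses differences near background. Whether the CsA effect itself changed with time was tested on its own. The effect at 24 h minus that at 12 h was -1.79 ± 0.80, and the effect at 48 h minus that at 24 h was 2.10 ± 0.80. Neither passed in limma over all genes (adjusted p = 1.00 and adjusted p = 0.867, or 1.00 and 0.246 with the block), nor did the F test over both differences (adjusted p = 1.00, or 0.356 with the block). In these tests 0, 0.0373% and 0.0373% of genes were called, and 0, 0.0467% and 0.028% with the block, none of them a member. TXNIP had an unadjusted p under 0.05 in each, where 87, 609 and 372 of 10717 genes did, or 263, 1438 and 1121 with the block. With the block TXN2 had such a p too for 48 minus 24 h and in the F test (limma, unadjusted p = 0.0290 and 0.0479). The larger TXNIP difference at 24 h is therefore a description of these arrays.

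Within replicate pairs, the direction was the same throughout for the brightest probe set. CsA minus vehicle was -0.20, -1.30 and -0.39 at 12 h, -2.21, -2.72 and -2.33 at 24 h, and -0.39, -0.30 and -0.25 at 48 h. TXNIP was thus lower with CsA in 9 of 9 pairs, as were 4.42% of all genes. The other TXNIP probe sets were lower in 8 of 9 pairs each, and the exception in both was pair 1 at 48 h, where CsA minus vehicle was 0.69 and 0.28. At 24 h their mean differences were -2.36 and -2.95, both in the direction of the brightest one.

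**Figure D2:**
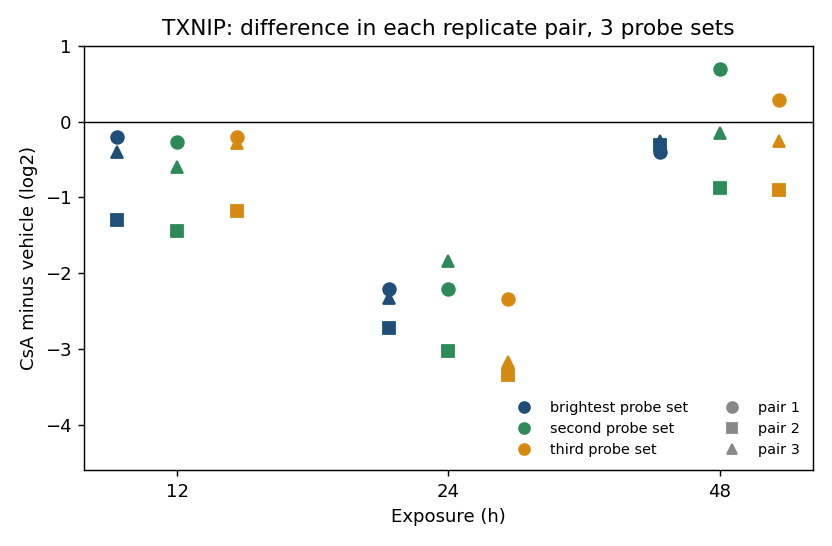
CsA minus vehicle of TXNIP (log2, vertical axis) in each replicate pair at each exposure time (horizontal axis), with a colour per probe set and a symbol per pair. All 9 points at 24 h lie between -3.34 and -1.84, and the points above 0 are those of the second and the third probe set in pair 1 at 48 h.

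Averaged over the 3 times, CsA minus vehicle for TXNIP was -1.12 ± 0.33, which is 2.18-fold lower and ranked 4 among the largest decreases of all genes. The average did not pass without the block (limma, adjusted p = 0.176), where 0.084% of genes were called. With the replicate block TXNIP fell with CsA (limma, adjusted p = 0.0252), 1 of 7 tested members against 4.61% of all genes, or 2.5% counting falls. That blocked call held in 13 of 18 fits that each left out 1 array (limma, adjusted p from 0.0158 to 0.0652). It was lost without CsA replicate 1 at 12 h (-1.16, adjusted p = 0.058), CsA replicate 2 at 24 h (-1.09, 0.0562) or 48 h (-1.10, 0.0524), vehicle replicate 2 at 12 h (-1.03, 0.0652) or vehicle replicate 2 at 24 h (-1.10, 0.0596). Without the 6 arrays of replicate 3 it stood at -1.19 (limma with the block, adjusted p = 0.0562).

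The second comparison asked how the genes moved with time in culture. TXNIP fell steeply in the vehicle cultures themselves, without any CsA. From 12 to 48 h it fell by 4.56 ± 0.57, which is 23.6-fold lower (limma, adjusted p = 0.000331), the largest fall of any gene tested. Most of this came between 24 and 48 h, where it fell by 3.20 ± 0.57 (9.17-fold, limma adjusted p = 0.00309), also the largest fall. Between 12 and 24 h the vehicle difference was -1.36 ± 0.57 without overlap, which 6.06% of genes showed in either direction, and it did not pass (limma, adjusted p = 1.00). No gene did in that comparison, with or without the block (131 and 427 genes at unadjusted p under 0.05, and 1 member, TXNIP, in both).

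In the CsA arrays the larger step was the earlier one, a description only, since the steps were not tested against each other. At 24 h minus 12 h TXNIP stood at -3.15 ± 0.57, 8.90-fold lower and the largest decrease of any gene. This difference did not pass without the block (limma, adjusted p = 0.146), where 0 genes did and 486 had an unadjusted p under 0.05, and was called with it (adjusted p = 0.0382), as were 0.131% of genes. ARRDC3 had such an unadjusted p too, at -0.49 (limma, 0.0376, and 0.0445 with the block). It was called in neither fit (adjusted p = 0.408 with the block). At 48 h minus 24 h the TXNIP difference was -1.09 ± 0.57, with overlapping arrays (limma, adjusted p = 0.185, and adjusted p = 0.0476 with the block). Over the whole span from 12 to 48 h TXNIP fell by 4.25 ± 0.57, 19.0-fold (limma, adjusted p = 0.000151). It ranked 5 among the decreases of all genes over that span, and 660 from 24 to 48 h. The blocked call from 12 to 24 h was lost in 8 of 18 fits without 1 array (differences from -3.57 to -2.85, highest adjusted p = 0.225) and without replicate 3 (limma, adjusted p = 0.125). The blocked call from 24 to 48 h was lost in 11 of 18 such fits (differences from -1.50 to -0.68, highest adjusted p = 0.236). Without replicate 3 that call was kept (-1.68, limma with the block, adjusted p = 0.0117).

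The other TXNIP probe sets declined too. Between 12 and 48 h they differed by -4.75 and -5.02 in vehicle, and by -4.09 and -4.76 in CsA. In vehicle at 48 h the third probe set read 4.06, 3.66 and 5.71, and in CsA 4.34, 2.76 and 5.46, so that replicate 2 of CsA had come close to background.

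Among all 7 tested members, the vehicle arrays had 3 falls and no rise from 12 to 48 h (TXNIP, ARRDC3 and TXN), where 17.9% of genes were called, and 4 called with the block, where 36.7% were. Between 24 and 48 h the same 3 genes fell, against 14.5% of genes, or 32.6% with the block. In CsA, 3 fell and 1 rose from 12 to 48 h (the same 3 falls, and MLX), against 32.5% of genes, or 48.7% with the block, and 2 fell from 24 to 48 h, against 25.2%. With the block, 3 fell from 24 to 48 h in CsA, against 41.8%. With CsA against vehicle, 0 of 7 members passed at 12, 24 or 48 h in limma, with or without the block. At 48 h 0.439% of genes passed without it and 10.8% with it. At 12 h no gene passed in either fit (98 and 259 genes at unadjusted p under 0.05, 0 members in both). At 48 h 0 members had such a p without the block and 1, TXN2, with it, against 1719 and 3014 of all genes.

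**Figure D3:**
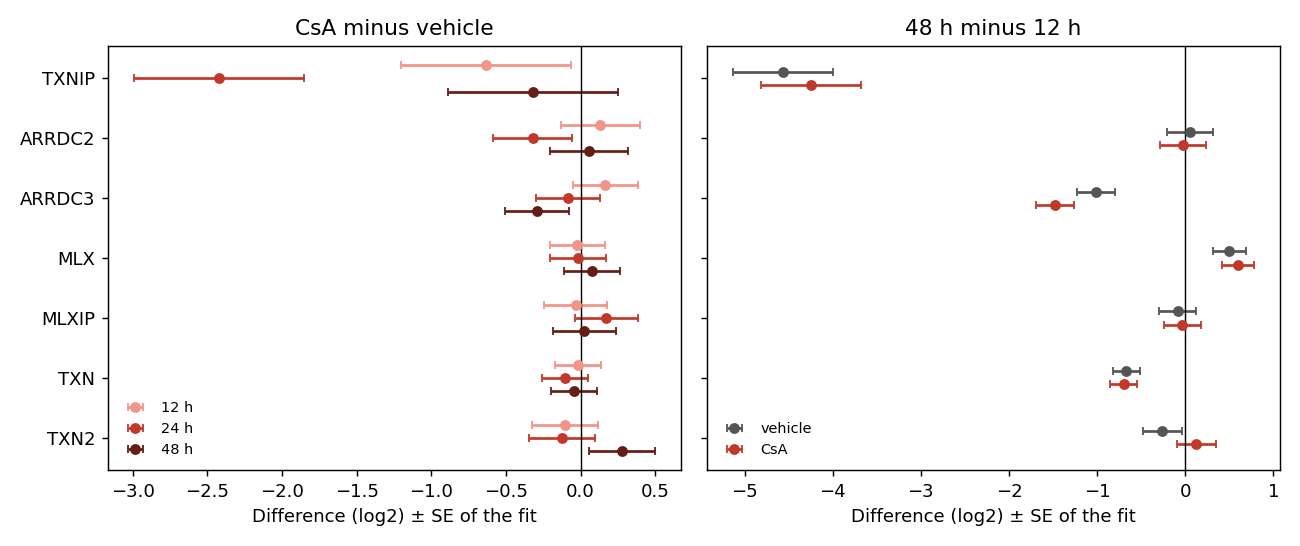
Differences of the 7 tested genes (horizontal axes, log2, bars for the SE of the fit): CsA minus vehicle at each time on the left, and 48 h minus 12 h in each treatment on the right. TXNIP at 24 h (-2.42) stands away from 0 on the left, where the other genes lie between -0.32 and 0.28, and on the right TXNIP, ARRDC3 and TXN lie below 0 and MLX above.

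ARRDC3, an alpha-arrestin that recruits ubiquitin ligases to membrane receptors, declined with time and differed little between treatments. Its values in vehicle were 9.18, 9.43 and 9.50 at 12 h, 8.78, 9.34 and 9.27 at 24 h, and 8.69, 8.46 and 7.93 at 48 h. In CsA they were 9.41, 9.30 and 9.90 at 12 h, 9.09, 9.02 and 9.03 at 24 h, and 8.26, 8.14 and 7.79 at 48 h. The 48 h arrays lay below the 12 h arrays in both treatments, and the treatments overlapped at every time. The share of all genes separated in this way from 12 to 48 h is not given here. Many genes moved over that span, with 36.7% called in vehicle and 48.7% in CsA with the block. ARRDC3 fell between 12 and 48 h by 2.02-fold in vehicle (-1.02 ± 0.22, limma adjusted p = 0.00713) and by 2.78-fold in CsA (-1.47 ± 0.22, adjusted p = 0.000249). Both treatments showed the fall between 24 and 48 h, with differences of -0.77 in vehicle (limma, adjusted p = 0.0297) and -0.98 in CsA (adjusted p = 0.00453). The vehicle call from 24 to 48 h was lost without replicate 2 or 3 of vehicle at 24 or 48 h, and without all arrays of replicate 3 (-0.49, limma adjusted p = 0.104).

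CsA minus vehicle for ARRDC3 was 0.17 at 12 h, -0.08 at 24 h and -0.29 at 48 h, each ± 0.22. The 95% intervals ran from -0.29 to 0.63, from -0.54 to 0.38 and from -0.75 to 0.17. At 48 h ARRDC3 was lower with CsA in each of the 3 pairs, with differences from -0.43 to -0.14, and this did not pass (limma, adjusted p = 0.580). At 12 and 24 h its pairs differed in sign. The share of all genes whose 3 pairs agreed at one time is not given here.

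ARRDC4, the closest relative of TXNIP among these genes and another MondoA target, was near background almost throughout and was not tested, since its highest group mean was 3.33. In vehicle at 12 h it read 4.13, 2.55 and 3.31, and in CsA at 12 h 2.84, 2.48 and 2.53. At 24 and 48 h all 12 arrays read between 2.47 and 2.54. The values above this background were thus seen in 2 vehicle arrays and, weakly, 1 CsA array of 12 h, the time at which TXNIP was highest. In the 12 h arrays replicate 1 was the highest for ARRDC4 in both treatments, as it was for TXNIP.

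ARRDC2, an alpha-arrestin of less known function, was low and showed no called change. Its values ran from 3.89 to 5.27 over the 18 arrays, and both extremes came from vehicle at 48 h (3.89, 4.89 and 5.27). CsA minus vehicle was 0.13, -0.32 and 0.06 at 12, 24 and 48 h, each ± 0.26. At 24 h it was lower with CsA in each of the 3 pairs, with differences from -0.39 to -0.28 and overlapping arrays (limma, adjusted p = 0.999). At 12 and 48 h its pairs differed in sign, and the share of all genes with 3 agreeing pairs is not given here. The ARRDC2 difference between 12 and 48 h was 0.05 in vehicle and -0.02 in CsA.

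MLX, the obligate partner of MondoA, was higher at 48 h, when TXNIP was low. Its values in vehicle were 8.51, 8.47 and 8.79 at 12 h, 8.77, 8.97 and 8.73 at 24 h, and 8.93, 9.14 and 9.20 at 48 h. In CsA they were 8.39, 8.50 and 8.81 at 12 h, 8.57, 9.28 and 8.57 at 24 h, and 8.96, 9.27 and 9.26 at 48 h. The 48 h arrays lay above the 12 h arrays in both treatments, a description given without the share of all genes that separated so. MLX rose in CsA from 12 to 48 h by 0.60 ± 0.18 (1.51-fold, limma adjusted p = 0.0232), a call lost without CsA replicate 1 or 2 at 12 h or replicate 2 or 3 at 48 h. In vehicle it was 0.50 ± 0.18 higher (1.41-fold, limma adjusted p = 0.0759, and adjusted p = 0.0263 with the block). That blocked call was lost without vehicle replicate 2 at 12 h or replicate 1 or 3 at 48 h (limma, highest adjusted p = 0.133, differences from 0.37 to 0.59). Without all arrays of replicate 3 it was kept (0.55, limma with the block, adjusted p = 0.0447).

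Of the 6 MLX probe sets 3 were above background, and the other bright ones were 0.56 and 0.56 higher at 48 than at 12 h in vehicle and 0.67 and 0.46 in CsA. CsA minus vehicle for MLX was -0.02, -0.02 and 0.08 at 12, 24 and 48 h, each ± 0.18. At 24 h the interval ran from -0.41 to 0.38, and the other bright probe sets were 0.23 and 0.22 higher with CsA.

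MLXIP, which encodes the glucose sensor MondoA, showed no called change. Group means lay between 5.67 ± 0.55 (vehicle, 24 h) and 5.85 ± 0.27 (vehicle, 12 h), and the widest spread was in vehicle at 24 h, at 5.21, 5.50 and 6.28. On the brightest probe set the 48 h arrays were close together, from 5.73 to 5.80 in both treatments. CsA minus vehicle was -0.03, 0.17 and 0.02, each ± 0.21, with 95% intervals from -0.49 to 0.42 at 12 h, from -0.28 to 0.62 at 24 h and from -0.43 to 0.48 at 48 h. At 48 h minus 12 h MLXIP stood at -0.09 in vehicle and -0.03 in CsA. Of the 4 MLXIP probe sets 2 were above background. The second one was less even at 48 h, from 5.04 to 6.00, and its CsA minus vehicle was 0.17, 0.33 and -0.16 at 12, 24 and 48 h.

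TXN, cytosolic thioredoxin and the protein that TXNIP binds, was near the top of the array's range and declined at 48 h. In vehicle its values were 13.46, 13.56 and 13.75 at 12 h, 13.43, 13.33 and 13.75 at 24 h, and 13.12, 12.63 and 13.01 at 48 h. In CsA they were 13.53, 13.49 and 13.69 at 12 h, 13.36, 13.20 and 13.64 at 24 h, and 12.93, 12.86 and 12.83 at 48 h. The 48 h arrays of each treatment lay below its arrays of both earlier times. The share of all genes with such separation is not given here, so it is a description only. TXN fell between 12 and 48 h by 1.59-fold in vehicle (-0.67 ± 0.15, limma adjusted p = 0.0104) and by 1.62-fold in CsA (-0.70 ± 0.15, adjusted p = 0.00347).

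The step from 24 to 48 h was -0.58 in vehicle (limma, adjusted p = 0.0236) and -0.52 in CsA (adjusted p = 0.0232). The vehicle call was lost without replicate 1 or 3 at 24 h or replicate 2 at 48 h, the CsA call without replicate 1 or 3 at 24 h or replicate 2 or 3 at 48 h, and both without all arrays of replicate 3. The second TXN probe set gave -0.49 in vehicle and -0.55 in CsA at 48 h minus 12 h. CsA minus vehicle for TXN was -0.02, -0.11 and -0.05, each ± 0.15, and the 95% interval at 24 h ran from -0.44 to 0.22. A difference of the size seen for TXNIP at 24 h lies outside that interval.

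TXN2, mitochondrial thioredoxin, showed no called change. Its group means lay between 8.55 ± 0.20 (vehicle, 48 h) and 8.83 ± 0.41 (CsA, 48 h). At 48 h it read 8.56, 8.74 and 8.35 in vehicle and 9.02, 9.11 and 8.36 in CsA, higher with CsA in each pair by 0.01 to 0.46. That difference of 0.28 ± 0.22 did not pass (limma, adjusted p = 0.617), and the second TXN2 probe set gave 0.35. The share of all genes whose pairs agreed at one time is not given here. At 12 and 24 h CsA minus vehicle for TXN2 was -0.11 and -0.12. At 48 h minus 12 h TXN2 stood at -0.26 in vehicle and 0.12 in CsA.

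**Figure D4:**
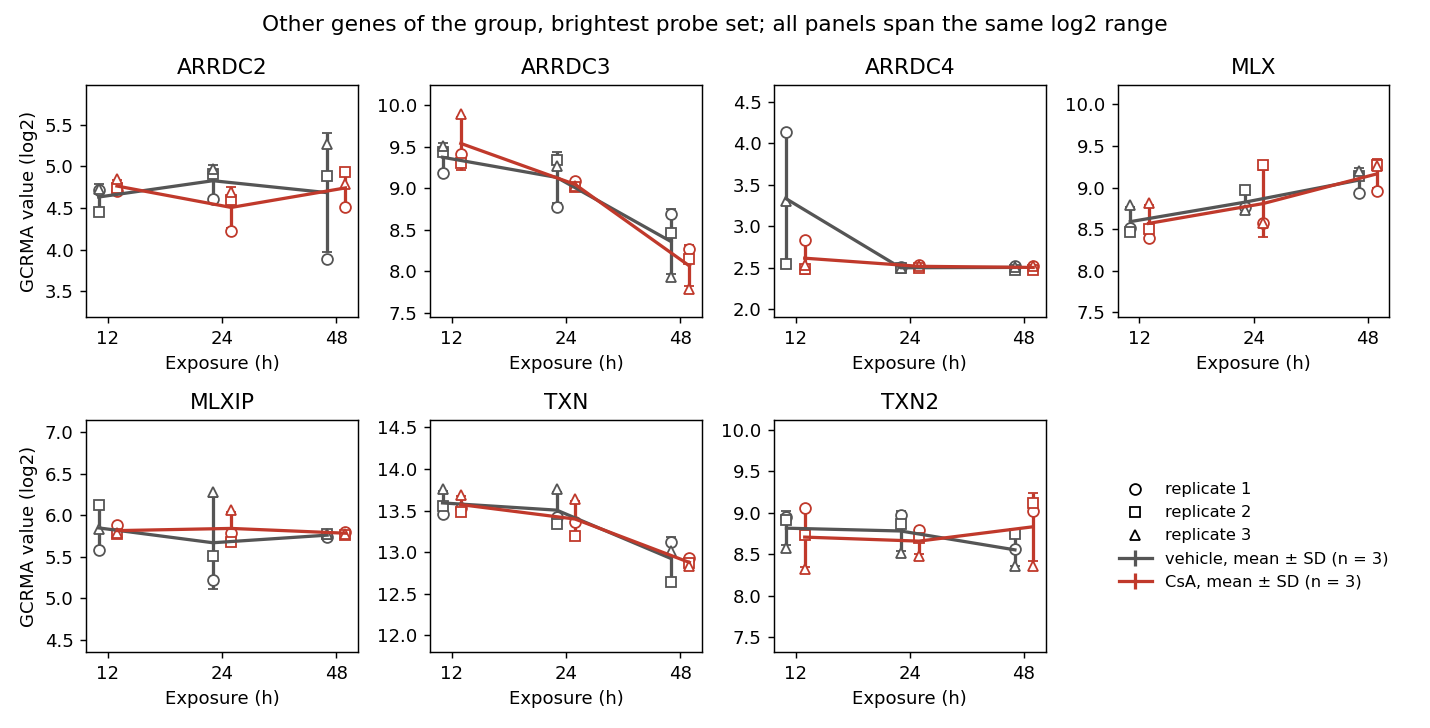
Log2 GCRMA values of the other 7 genes by exposure time, a symbol per array and lines through group means with the SD over 3 arrays, vehicle in grey and CsA in red; every panel spans the same width on the log2 scale. ARRDC3 and TXN decline towards 48 h in both treatments, MLX lies higher at 48 h than at 12 h, and ARRDC4 lies above background in 2 vehicle arrays and, weakly, 1 CsA array of 12 h.

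The genes that work with MLX and TXNIP were described through lists, in which none of 77 tested genes passed for CsA against vehicle at 12, 24 or 48 h (limma, with 0, 2 and 14 of them at unadjusted p under 0.05). Of all 10717 genes, 98, 406 and 1719 had such a p at those times, so these counts do not set the lists apart. With the replicate block 10 of the 77 passed at 48 h, 3 higher and 7 lower, against 10.8% of all genes. The MLX and MAX network holds the partners that share DNA sites with MondoA and MYC, and 7 of its 11 genes were tested. In vehicle from 12 to 48 h 4 rose and 0 fell, against 17.9% of all genes called in either direction, and with the block 5 rose and 1 fell, against 36.7%. MAX, the shared partner of MYC, rose by 0.93, MNT, a repressor that pairs with MAX or MLX, by 0.77, MXI1, a MYC antagonist, by 1.01 and MYC by 0.44 (limma, adjusted p = 0.000260, 0.000331, 0.00533 and 0.0478). The list's median was 0.77, against -0.01 over all genes. In CsA 3 rose and 1, MXD3, another MYC antagonist, fell by 0.59, against 32.5% of all genes, with 3 and 1 also called with the block, against 48.7%, and a median of 0.84. For the lists that follow, the same 17.9% (36.7% with the block) in vehicle and 32.5% (48.7%) in CsA are the shares of all genes called from 12 to 48 h.

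Of 18 carbohydrate response targets, genes that glucose raises through MondoA or its relative ChREBP, 14 were tested. Between 12 and 48 h in vehicle 1 rose and 2 fell, 1 and 4 with the block, both counts near the shares of all genes called (17.9% and 36.7%). KLF10, a zinc finger repressor induced by glucose, fell by 1.29, and FASN, fatty acid synthase, fell by 1.51, while HK2, a hexokinase, rose by 0.66 (limma, adjusted p = 0.00327, 0.00406 and 0.0308). In CsA 1 rose and 5 fell, 1 and 8 with the block, against 32.5% and 48.7% of all genes. The falls included PNPLA3, a lipid droplet hydrolase (-1.88), KLF10 (-1.46), FASN (-1.65) and ELOVL6, a fatty acid elongase (-1.76). The list's median was -0.20 in vehicle and -0.51 in CsA, against -0.01 over all genes in both. With CsA against vehicle at 48 h, PNPLA3 stood at -1.18, PFKFB3, a regulator of glycolysis, at -1.16 and ME1, malic enzyme, at 0.48. These were called with the replicate block only (limma with the block, adjusted p = 0.0259, 0.0156 and 0.0206, and without it 0.0688, 0.0688 and 0.226). They, and ARRB1 and PRDX4 at 48 h below, were named after their values were seen.

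Of 9 other arrestin-fold genes 5 were tested, and none passed in vehicle from 12 to 48 h without the block (1 rose with it). In CsA over that span 2 rose and 1 fell with the block, against 48.7% of all genes. ARRB1, beta-arrestin 1, fell in CsA from 12 to 48 h (-1.27, limma adjusted p = 0.0174), and at 48 h CsA minus vehicle was -1.20, a difference called with the block only (adjusted p = 0.135 without it and 0.00714 with it). Of 9 ubiquitin ligases with WW domains, which bind the PPxY motifs of alpha-arrestins, 7 were tested. ITCH, the ligase that targets TXNIP protein, rose by 1.00 in vehicle and 0.96 in CsA from 12 to 48 h (limma, adjusted p = 0.0454 and 0.0339). WWP1 fell by 0.54 in CsA (limma, adjusted p = 0.0463). With the block, the list had 2 rises and 1 fall among its 7 tested genes in both treatments, against 36.7% of all genes called in vehicle and 48.7% in CsA.

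The thioredoxin and peroxiredoxin system had 18 of 20 genes tested. In vehicle from 12 to 48 h 1 rose and 3 fell, 2 and 6 with the block, against 17.9% and 36.7% of all genes. TXNDC17, a thioredoxin-like reductase, fell (-0.68), as did PRDX1, a cytosolic peroxiredoxin (-0.66), and TXNRD2, mitochondrial thioredoxin reductase (-0.91), while TXNL1 rose by 0.44 (limma, adjusted p = 0.00103, 0.00807, 0.0325 and 0.0352). In CsA 3 rose and 5 fell, 5 and 6 with the block, against 32.5% and 48.7% of all genes. GLRX, glutaredoxin, rose there by 1.10 (limma, adjusted p = 0.0149). PRDX4, the peroxiredoxin of the endoplasmic reticulum, was 0.47 higher with CsA at 48 h (limma, adjusted p = 0.0563, and adjusted p = 0.0126 with the block). The list's median from 12 to 48 h was -0.05 in vehicle and 0.09 in CsA. Of 8 inflammasome genes, whose NLRP3 complex TXNIP protein can bind, 3 were tested and none passed over time without the block. With it, from 12 to 48 h, 1 rose and 1 fell in vehicle, against 36.7% of all genes. In CsA 0 rose and 1 fell, against 48.7%. IL1B was lower with CsA at 48 h (-0.88, limma adjusted p = 0.222, and adjusted p = 0.0269 with the block), and PYCARD, the adaptor, stood at -0.12.

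Likeness to TXNIP was measured by Pearson's r over the 18 arrays, after each gene's mean per replicate number had been subtracted. The arrays share treatment, time and culture, so r describes shared order only. Of 10716 genes 18 had r of 0.9 or more, 38 had -0.9 or less, and the median was 0.0088. The highest were ZCCHC17 (0.96), MRPL1 (0.95), ALG6 (0.95), SNRNP35 (0.94) and LANCL2 (0.93), genes of RNA binding, mitochondrial translation, N-glycan assembly, minor splicing and a peptide-modifying enzyme family. Without that subtraction r was lower for some of them, at 0.71 for ZCCHC17 and 0.64 for MRPL1, and 0.92, 0.88 and 0.92 for ALG6, SNRNP35 and LANCL2, so the order rests on it. Their own range was far narrower: ZCCHC17 went from 9.51 in vehicle at 12 h to 8.87 at 48 h. The genes most opposed were STC2 (-0.96), BACH1 (-0.95), CEBPB (-0.94), ATF4 (-0.94) and CREBRF (-0.93), a secreted glycoprotein and 4 transcription regulators. Their r without the subtraction was -0.93, -0.79, -0.71, -0.93 and -0.90. ATF4, the main effector of the integrated stress response, had means of 11.64 in vehicle and 12.01 in CsA at 12 h, 11.98 and 12.80 at 24 h, and 13.23 and 13.59 at 48 h. By these means ATF4 in CsA at 12 h was level with vehicle at 24 h, whereas the TXNIP mean was higher in CsA at 12 h than in vehicle at 24 h. The TXNIP arrays of those groups overlapped, and this difference in order was not tested.

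Among the members, r with TXNIP was 0.80 for TXN and 0.77 for ARRDC3, 0.25 for TXN2, 0.13 for ARRDC2, -0.04 for MLXIP and -0.73 for MLX. Without the 2 arrays farthest from the TXNIP median, r was 0.76 for TXN, 0.74 for ARRDC3 and -0.65 for MLX. TXNIP values differed by time and, at 24 h, by treatment, so r across all arrays carries both of these patterns given above. The 10 genes were chosen on the same arrays, those of 24 h included, so a CsA difference at that time was part of the choice and is given as a description. CsA minus vehicle at 24 h was -0.52 for ALG6 and between -0.33 and -0.28 for the other genes that followed TXNIP. It was 2.18 for STC2 and between 0.45 and 0.82 for the other genes that opposed it.

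**Figure D5:**
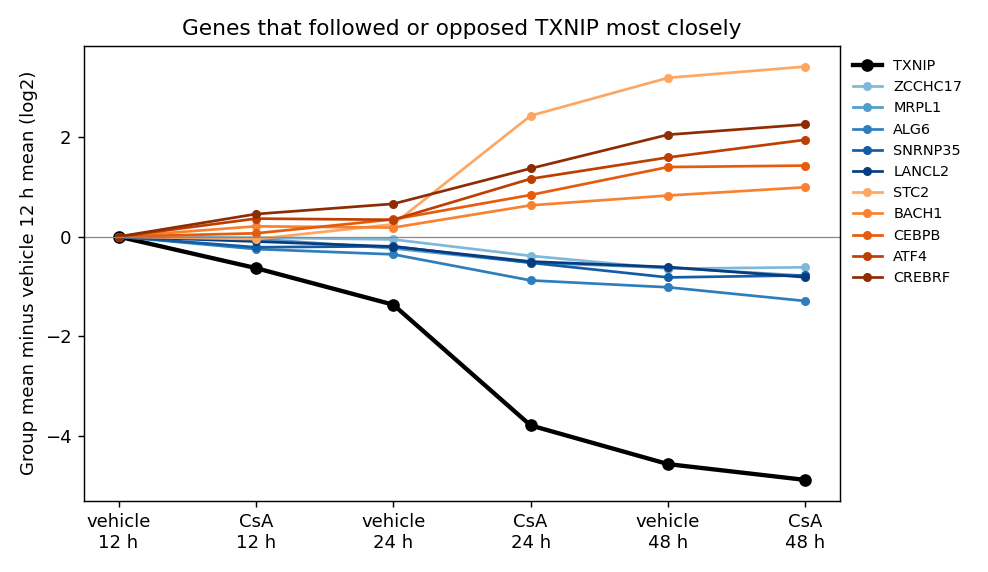
Group mean minus the vehicle 12 h mean (log2, vertical axis) for TXNIP in black, the 5 genes with the highest r in blue and the 5 with the lowest in orange, over the 6 groups ordered by time and treatment (horizontal axis; lines only join the points). TXNIP steps down and STC2 steps up between vehicle and CsA at 24 h, while the genes in blue change by less than TXNIP throughout.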

How the data were processed

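The 18 arrays were grouped by the treatment and time in their labels, with the replicate number given there. Per the submitters' processing notes, the authors made the deposited values with GCRMA, no version given. The deposited values, made by the authors with GCRMA per the submitters' processing notes, are taken here as log2 because of their range, since no label states the base. The sources do not say which arrays were normalized jointly. GCRMA compresses differences near background, and the number of arrays limits the precision.

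Of 54675 probe sets, 41091 had 1 symbol in the platform annotation, 1801 several, 11721 none here and 62 were controls. Symbols were checked against RefSeq by gene identifier (0 changed, 54 without a match). Genes were tested on their brightest probe set where the highest group mean reached 4, which left 10717 genes and 7 of the 8 members; ARRDC4 did not reach it. R 4.3.3 and limma 3.58.1 fitted a single model to all 18 arrays, with 1 coefficient per group (lmFit and eBayes) and Benjamini-Hochberg adjustment over all genes tested and a threshold of 0.05. The fit without the replicate block was tried on simulated data for CsA against vehicle at 24 h, with independent noise for each array. That noise lacked the variation shared by replicate number, and the fit with the block was not simulated. Tables and figures used Python 3.11.15, pandas 2.3.3 and matplotlib 3.10.9. The contrasts were CsA against vehicle at each time, their average, their differences between times, and each treatment over time, and these share arrays.

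Deviations from the group means correlated between same-numbered arrays of any groups at 0.277 or more, and between CsA and vehicle of one time at 0.546 to 0.942. For 18 of 18 arrays the best match outside the group carried the same number. On that evidence from the data, which the labels do not give, the numbers were treated as pairs, and the fit with the replicate block is given where it changes a call. The members, the further lists and the motifs were chosen with earlier results of these data known, so their p-values are no independent evidence. Besides the 8 members, the text names per list and comparison at most 4 genes past the test by smallest p, or the 2 with the largest CsA effect at 48 h where none passed, and the 5 genes most and the 5 least like TXNIP. A gene outside this rule is marked where it is named.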

Additional observations from a re-analysis of the deposited data

How the results depend on the processing

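Filters, floors, normalization, probe set choice, the replicate block and left-out arrays were varied one at a time, and the blocked calls were also refitted without arrays, a step added after the data were seen. TXNIP kept its sign in every contrast and setting except the difference of its CsA effect between 48 and 12 h (0.31, leave-one-out range -0.0425 to 0.69). Its CsA difference at 24 h ranged from -3.05 to -1.90 without 1 array (limma, adjusted p from 0.145 to 1.00), and was -2.47 without all arrays of replicate 3 (adjusted p = 0.483). The replicate block moved the members called from 0 to 1 for the CsA average and for CsA from 12 to 24 h, TXNIP in both. Without replicate 3, members called fell to 1 in vehicle and 1 in CsA from 24 to 48 h (3 and 2 with all arrays), and ranged from 1 to 3 in both without 1 array. Small differences changed sign. Leave-one-out ranges for CsA against vehicle were, for ARRDC2 at 48 h, -0.34 to 0.35; ARRDC3, -0.0134 to 0.28 at 12 h and -0.26 to 0.0232 at 24 h; MLX, -0.14 to 0.0797 at 12 h, -0.25 to 0.10 at 24 h and -0.0041 to 0.18 at 48 h. They were -0.16 to 0.10 at 12 h and -0.0543 to 0.48 at 24 h for MLXIP, -0.0855 to 0.0607 at 12 h, -0.23 to 0.0173 at 24 h and -0.19 to 0.0524 at 48 h for TXN, and -0.28 to 0.0823 at 12 h for TXN2. From 12 to 48 h they were -0.24 to 0.45 in vehicle and -0.12 to 0.0945 in CsA for ARRDC2, -0.22 to 0.0501 in vehicle and -0.0512 to 0.0027 in CsA for MLXIP, and -0.065 to 0.36 in CsA for TXN2. Centring array medians gave 0.0106 for MLX and 0.0119 for TXN at 12 h, and quantile normalization 0.0027 for MLX. The mean of a gene's probe sets gave 0.14 for MLX at 24 h, and for MLXIP 0.0698 at 12 h and -0.067 at 48 h. Without replicate 3, CsA against vehicle was 0.0521 for MLX at 24 h and 0.0216 for TXN at 48 h, and ARRDC2 in vehicle from 12 to 48 h was -0.19. ARRDC3 in vehicle from 24 to 48 h missed the threshold with no level filter (limma, adjusted p = 0.053) and with a floor at 4 (adjusted p = 0.0641). The cause of these changes was not tested. Probe sets near background, such as ARRDC4 after 12 h, limit what a difference can show.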

Other observations

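Further lists around glucose use were counted against all genes, of which 17.9% in vehicle and 32.5% in CsA were called from 12 to 48 h, or 36.7% and 48.7% with the replicate block. Of 13 genes of glucose uptake and phosphorylation, the step that TXNIP protein restrains, 7 were tested, and none passed in vehicle from 12 to 48 h without the replicate block, while 2 fell with it. SLC2A13, a myo-inositol transporter of the glucose transporter family, fell by 0.71 in CsA over that span (limma, adjusted p = 0.0131). With the block, 2 rose and 3 fell in CsA, against 48.7% of all genes.

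Of 12 FOXO and starvation-linked genes 10 were tested, and from 12 to 48 h 1 rose and 0 fell in each treatment (3 and 0 in vehicle, 2 and 1 in CsA with the block). FOXO3, a transcription factor that insulin signalling keeps out of the nucleus, rose by 0.65 in vehicle and 0.43 in CsA from 12 to 48 h (limma, adjusted p = 0.00238 and 0.00914), and BCL6, a transcriptional repressor, fell by 0.60 in CsA from 24 to 48 h (adjusted p = 0.0168).

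The medium of all groups contained hydrocortisone, and of 8 glucocorticoid targets 6 were tested. From 12 to 48 h 1 rose and 0 fell in vehicle (2 and 1 with the block), and 2 rose and 1 fell in CsA (3 and 2 with the block). TSC22D3, a glucocorticoid-induced leucine zipper protein, rose by 1.41 in vehicle and 1.22 in CsA from 12 to 48 h (limma, adjusted p = 0.00327 and 0.00259), and KLF9 rose by 1.10 in CsA (adjusted p = 0.0392). SGK1, a kinase raised by corticosteroids, fell by 2.21 in CsA (limma, adjusted p = 0.000313). SGK1 thus moved opposite to TSC22D3 and KLF9 in the CsA cultures.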
